A study of Mus musculus with 16 samples.

Results

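The methyl-CpG binding proteins examined here are the products of 9 genes, Mbd1, Mbd2, Mbd3, Mbd4, Mbd5, Mbd6, Zbtb4, Zbtb33 and Zbtb38. They were taken as a named list and matched by symbol to the versioned Ensembl identifiers of the tables. All 9 were found among the 55385 genes listed, and all 9 passed the filter on low counts which left 17222 genes to be tested. RNA was sequenced from primary hippocampal cultures of newborn C57Bl/6N mice, plated on postnatal day 0 and infected on day 4 in vitro with recombinant adeno-associated viruses. The 4 groups, of 4 libraries each, were Control-shRNA at baseline, Control-shRNA with bicuculline for 4 h, Dnmt3a1-shRNA at baseline and Dnmt3a1-shRNA with bicuculline for 4 h. All 16 cultures therefore carried a virus and an shRNA. The control hairpin and the knockdown hairpin were each 1 sequence, and the study's text gives the second as Dnmt3a1-shRNA2. Bicuculline, used at 50 µM, blocks GABA-A receptors and so raises firing in the network. The 4 libraries of a group are described as independent neuronal preparations.

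Methylated CpG is read by several protein families. The MBD family shares a methyl-CpG binding domain, which in Mbd1, Mbd2 and Mbd4 recognises methylated DNA, while mammalian Mbd3 and, as far as is known, Mbd5 and Mbd6 bind methylated CpG poorly or not at all. Kaiso (Zbtb33), Zbtb4 and Zbtb38 bind methylated DNA through zinc fingers. Several of these proteins recruit repressors. Mbd2 and Mbd3 are alternative subunits of the NuRD deacetylase and remodelling complex, Kaiso recruits NCoR, and Mbd1 works with the H3K9 methyltransferase Setdb1. Mbd5 and Mbd6 join the PR-DUB histone deubiquitinase. Mbd4 is a DNA glycosylase that removes thymine or uracil from mismatches at CpG sites. Dnmt3a, the enzyme whose long isoform was targeted here, is a de novo DNA methyltransferase, one that adds new methylation. Whether the knockdown altered methylation at CpG sites was not measured in these RNA libraries.

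The letter pair that these proteins read is also found at their own promoters. RefSeq promoters on GRCm38.p6, 300 bases each from 250 before to 50 after a start, were at hand for 7 of the 9 genes, with 11 starts in all. No sequence was printed for Mbd1 and Mbd2. The starts of Zbtb38 and Mbd5 are shown because these genes have several starts that differ in CpG content and because their RNA was lower with bicuculline. CpG is in capitals, and each sequence reads 5′ to 3′ on the gene's strand. Zbtb38 lies on the minus strand, with windows at chr9:96731626-96731925, chr9:96719801-96720100 and chr9:96719396-96719695, and Mbd5 lies on the plus strand, with windows at chr2:48949258-48949557 and chr2:49245650-49245949.
Zbtb38 upstream start: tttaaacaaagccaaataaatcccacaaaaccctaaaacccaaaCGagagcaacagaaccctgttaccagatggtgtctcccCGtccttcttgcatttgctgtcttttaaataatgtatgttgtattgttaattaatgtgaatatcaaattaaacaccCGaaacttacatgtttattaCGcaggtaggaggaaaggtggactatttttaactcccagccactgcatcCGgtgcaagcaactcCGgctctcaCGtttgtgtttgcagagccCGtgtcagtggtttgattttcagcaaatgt
Zbtb38 middle start: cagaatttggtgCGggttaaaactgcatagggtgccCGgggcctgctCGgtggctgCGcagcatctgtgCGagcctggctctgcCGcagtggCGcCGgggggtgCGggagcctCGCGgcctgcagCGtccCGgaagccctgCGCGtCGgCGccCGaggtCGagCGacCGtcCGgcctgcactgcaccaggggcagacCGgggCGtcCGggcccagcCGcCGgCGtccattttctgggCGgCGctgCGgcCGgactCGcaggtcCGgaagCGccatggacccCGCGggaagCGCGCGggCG
Zbtb38 downstream start: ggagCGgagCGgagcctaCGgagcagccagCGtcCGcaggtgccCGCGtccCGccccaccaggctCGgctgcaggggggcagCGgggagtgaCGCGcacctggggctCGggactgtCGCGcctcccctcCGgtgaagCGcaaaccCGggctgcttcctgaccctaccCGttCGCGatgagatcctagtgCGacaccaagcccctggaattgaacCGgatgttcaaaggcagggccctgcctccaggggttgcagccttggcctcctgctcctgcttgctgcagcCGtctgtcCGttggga
Mbd5 upstream start: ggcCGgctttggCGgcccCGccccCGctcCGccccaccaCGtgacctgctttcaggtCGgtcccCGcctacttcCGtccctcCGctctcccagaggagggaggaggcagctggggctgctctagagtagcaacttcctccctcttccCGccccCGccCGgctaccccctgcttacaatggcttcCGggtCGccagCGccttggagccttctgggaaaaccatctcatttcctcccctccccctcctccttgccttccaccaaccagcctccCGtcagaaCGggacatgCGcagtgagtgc
Mbd5 downstream start: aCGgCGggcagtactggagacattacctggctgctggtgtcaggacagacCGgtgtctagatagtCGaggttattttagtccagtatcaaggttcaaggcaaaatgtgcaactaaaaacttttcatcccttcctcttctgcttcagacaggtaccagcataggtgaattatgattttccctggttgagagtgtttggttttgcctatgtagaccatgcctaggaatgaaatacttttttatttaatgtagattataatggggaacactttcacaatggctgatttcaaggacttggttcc
The upstream Zbtb38 window held 8 CpG, close to the median of 7 over the 32851 promoters of the table. The middle window held 41 CpG, more than 96.5% of promoters, and the downstream window held 25. Mbd5 showed the same kind of contrast, with 19 CpG at its upstream start and 4 at its downstream start. The other 6 windows, of Mbd3, Mbd4, Mbd6, Zbtb4 and Zbtb33, held 22 to 44 CpG. The cAMP response element TGACGTCA, read on both strands, was in none of the 11 windows and in 1.79% of all promoters. The shorter TGACG, which is contained in that element, was found once on either strand in the downstream Zbtb38 window, the upstream Mbd5 window and the windows of Mbd4 and Zbtb33, against 20.8% of all promoters. The Kaiso consensus TCCTGCNA was found once, in the Mbd3 window, against 4.96% of all promoters. Such matches describe letters and not binding.

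Levels were compared between genes in TPM, the deposited value per transcript length. At baseline in Control-shRNA cultures Mbd3 was the most abundant of the 9, at 101 ± 3.72 TPM (SD, n = 4), above 89.4% of the genes tested. Mbd5 followed at 43.4 ± 4.89 TPM, Zbtb4 at 33.1 ± 2.44, Mbd2 at 30.1 ± 1.81 and Mbd1 at 24.0 ± 1.66. Mbd6 stood at 16.5 ± 2.69 TPM, Zbtb33 at 12.5 ± 1.63 and Zbtb38 at 10.3 ± 1.08. Mbd4 was lowest, at 3.18 ± 0.147 TPM, and still above 30.2% of the genes tested. The libraries of neighbouring genes in this order overlapped for Zbtb4 and Mbd2, for Mbd6 and Zbtb33 and for Zbtb33 and Zbtb38, and did not overlap for the other 5 neighbouring pairs. With bicuculline Mbd2 reached 42.6 ± 7.47 TPM in Control-shRNA and 49.0 ± 4.80 TPM in Dnmt3a1-shRNA, a higher mean than that of Mbd5, which was 31.9 ± 3.36 and 30.0 ± 1.55 TPM. The libraries of Mbd2 and Mbd5 overlapped with bicuculline in Control-shRNA, and in Dnmt3a1-shRNA they did not. The 9 genes thus spanned more than an order of magnitude, with the NuRD subunit Mbd3 at one end and the glycosylase Mbd4 at the other.

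**Figure D1:**
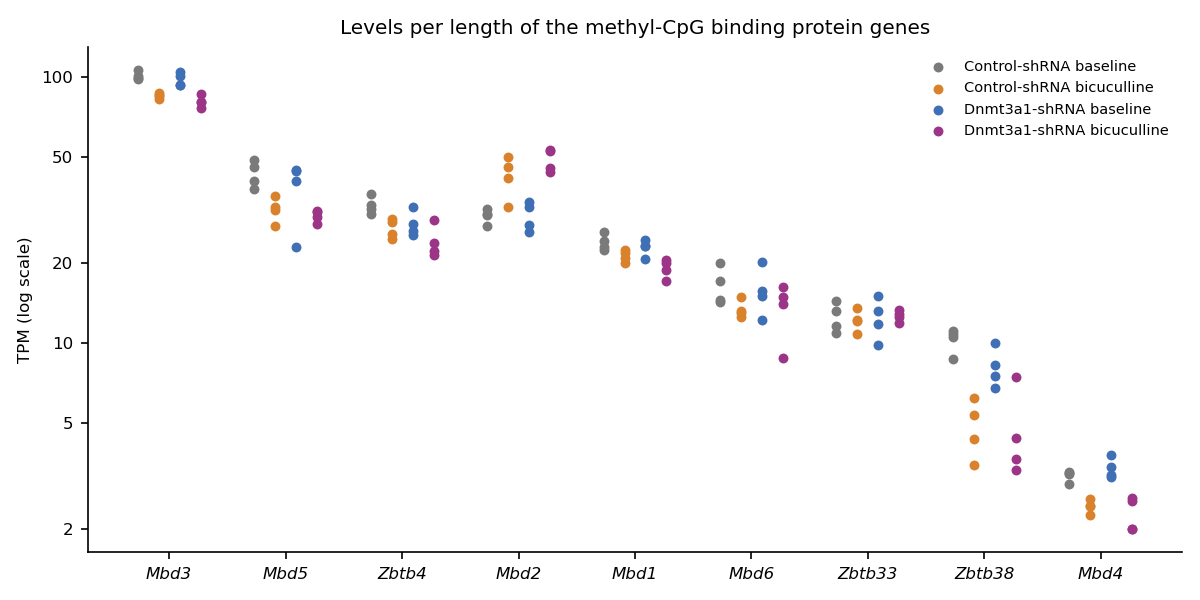
TPM of each gene (log axis) in the 16 libraries, 1 point per library, coloured by group and ordered by the mean in Control-shRNA baseline. Mbd3 sits near 101 TPM and Mbd4 near 3.18 TPM at baseline in Control-shRNA, and Mbd2 and Zbtb38 shift most with bicuculline.

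The libraries held 28912697 to 29586355 estimated counts, of which 2.73% to 6.60% were mitochondrial. The targeted gene, Dnmt3a, stood at 312 ± 13.8 CPM at baseline in Control-shRNA and at 44.5 ± 3.66 CPM in Dnmt3a1-shRNA, and with bicuculline at 327 ± 11.8 and 45.3 ± 1.72 CPM. Gene counts do not separate its isoforms. Arc, Fos and Npas4, which mark neuronal activity, rose with bicuculline in both shRNAs by 5.64 to 7.32 on the log2 scale. Summed over a list of 7 neuronal markers the libraries held 4960 to 5540 TPM at baseline and 4250 to 5170 TPM with bicuculline. The members moved in different directions. At an adjusted p under 0.05 by edgeR 4 were higher and 1 lower in Control-shRNA, against 19.5% and 21.9% of all genes. In Dnmt3a1-shRNA 3 were higher and 1 lower, against 20.8% and 25.2%. The lower gene was Tubb3, at -0.77 and -1.12 on the log2 scale. The sum over 6 astrocyte markers was 173 to 321 TPM at baseline and 145 to 321 TPM with bicuculline in Control-shRNA, and 194 to 419 and 234 to 410 TPM in Dnmt3a1-shRNA. Oligodendrocyte lineage markers summed to 79.4 to 185 TPM and fibroblast and vessel markers to 27.7 to 70.3 TPM, with the endothelial gene Cldn5 at 0 in all libraries of 2 groups. Microglial markers summed to 1.84 to 6.88 TPM and proliferation markers to 1.17 to 3.29 TPM. Since these were bulk samples, fewer cells of a type and less RNA per cell cannot be told apart, and the part of the cell makeup in the results was not tested.

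The first question was whether neuronal activity alters the genes that read DNA methylation. In Control-shRNA cultures Mbd2 rose and Zbtb38 fell with bicuculline, and the other 7 genes did not pass the test. One gene of 9 was therefore higher, against 19.5% of all genes tested, and 1 of 9 was lower, against 21.9%. In Dnmt3a1-shRNA cultures, which are separate libraries, Mbd2 rose again, against 20.8% of all genes higher, and Zbtb38 and Mbd5 fell, against 25.2% lower. Both Mbd2 and Zbtb38 also exceeded an absolute log2 fold change of 0.5 in each shRNA, a rule met by 21.9% of genes in Control-shRNA and by 25.8% in Dnmt3a1-shRNA. In either direction 2 of the 9 passed in Control-shRNA, against 41.4% of all genes, and 3 of the 9 in Dnmt3a1-shRNA, against 46.0%. With TMM, the scaling used for these counts, the share of the 9 genes called was below that of all genes. This difference rests on few genes and was not tested. The median log2 fold change of the 9 was -0.07 in Control-shRNA and -0.10 in Dnmt3a1-shRNA, and that of all genes was 0.01 and -0.01.

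Mbd2, the subunit that directs NuRD to methylated DNA, stood at 22.7, 20.7, 20.7 and 24.7 CPM in the 4 baseline libraries of Control-shRNA, in replicate order. With bicuculline it stood at 38.0, 29.04, 31.7 and 37.6 CPM. Every bicuculline library was above every baseline library, and the mean rose from 22.2 ± 1.90 to 34.1 ± 4.44 CPM (SD, n = 4). On the log2 scale this was a difference of 0.62 (SE 0.09, adjusted p = 2.59e-05 by edgeR's quasi-likelihood test). In Dnmt3a1-shRNA the baseline libraries were at 24.1, 22.0, 25.4 and 26.0 CPM and the bicuculline libraries at 43.2, 40.2, 37.9 and 40.6 CPM. These groups did not overlap either, and the log2 fold change was 0.73 (SE 0.09, adjusted p = 2.97e-06). Mbd2 was higher and passed under all 25 alternatives in each shRNA, which were 9 other settings and the leaving out of each of the 16 libraries, with an adjusted p of at most 0.00374.

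Zbtb38, a zinc-finger protein that can bind a single methylated CpG, moved the other way. Its baseline libraries in Control-shRNA lay close together, at 27.3, 25.2, 27.5 and 27.8 CPM, and its bicuculline libraries at 10.6, 19.1, 19.0 and 13.3 CPM. All bicuculline libraries were below all baseline libraries, and they were also further apart from each other, with a coefficient of variation of 27.4% against 4.49%. The mean fell from 27.0 ± 1.21 to 15.5 ± 4.25 CPM, a log2 fold change of -0.80 (SE 0.17, adjusted p = 0.0012). In Dnmt3a1-shRNA the baseline libraries were at 23.8, 20.99, 27.4 and 23.7 CPM and the bicuculline libraries at 12.8, 14.5, 21.6 and 13.2 CPM. Here the groups overlapped, since bicuculline replicate 3 was above baseline replicate 2. The log2 fold change was -0.63 (SE 0.17, adjusted p = 0.00664). Zbtb38 was lower and passed under all 25 of these alternatives in each shRNA, with an adjusted p of at most 0.0248. Its fall was also present per length, from 10.3 ± 1.08 to 4.86 ± 1.19 TPM in Control-shRNA and from 8.16 ± 1.39 to 4.72 ± 1.88 TPM in Dnmt3a1-shRNA. An antisense gene, A930006L05Rik, overlaps Zbtb38, and without a stated strand their reads cannot be told apart with certainty.

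Mbd5, which like Mbd6 joins PR-DUB and whose haploinsufficiency causes a neurodevelopmental disorder in humans, was lower with bicuculline by a smaller amount. In Control-shRNA it stood at 68, 60.5, 62.2 and 77.3 CPM at baseline and at 63.9, 45.9, 49.7 and 53.3 CPM with bicuculline. The groups overlapped through bicuculline replicate 1, and the log2 fold change of -0.33 (SE 0.14) had an adjusted p of 0.064. It passed under 9 of the 25 alternatives. With the replicate number as a block, which pairs the libraries in this comparison, the adjusted p was 0.00131, and without bicuculline replicate 1 it was 0.0207. Leaving out a library of the other shRNA, baseline replicate 2 or bicuculline replicate 1, moved only the shared spread and the scaling and gave 0.0255 and 0.0483. In Dnmt3a1-shRNA the libraries were at 77.2, 48.8, 65.0 and 76.9 CPM at baseline and at 61.2, 43.6, 51.4 and 50.4 CPM with bicuculline. The groups overlapped through baseline replicate 2, and the log2 fold change was -0.37 (SE 0.14, adjusted p = 0.0351). This call was lost without baseline replicate 1, 3 or 4 or without bicuculline replicate 2, 3 or 4 of Dnmt3a1-shRNA, with an adjusted p of 0.0504 to 0.115. It was lost as well on log2(TPM + 1) and log2(TPM + 0.1), at 0.157 and 0.156, with only the 2 groups compared in the fit, at 0.0567, and with DESeq2 size factors in edgeR, at 0.0535, so that it held under 15 of the 25 alternatives. The responses of Mbd5 in the shRNAs differed by -0.04 (SE 0.20) on the log2 scale, with an adjusted p of 1 for the interaction. Mbd5 overlaps the gene Orc4 on the opposite strand.

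**Figure D2:**
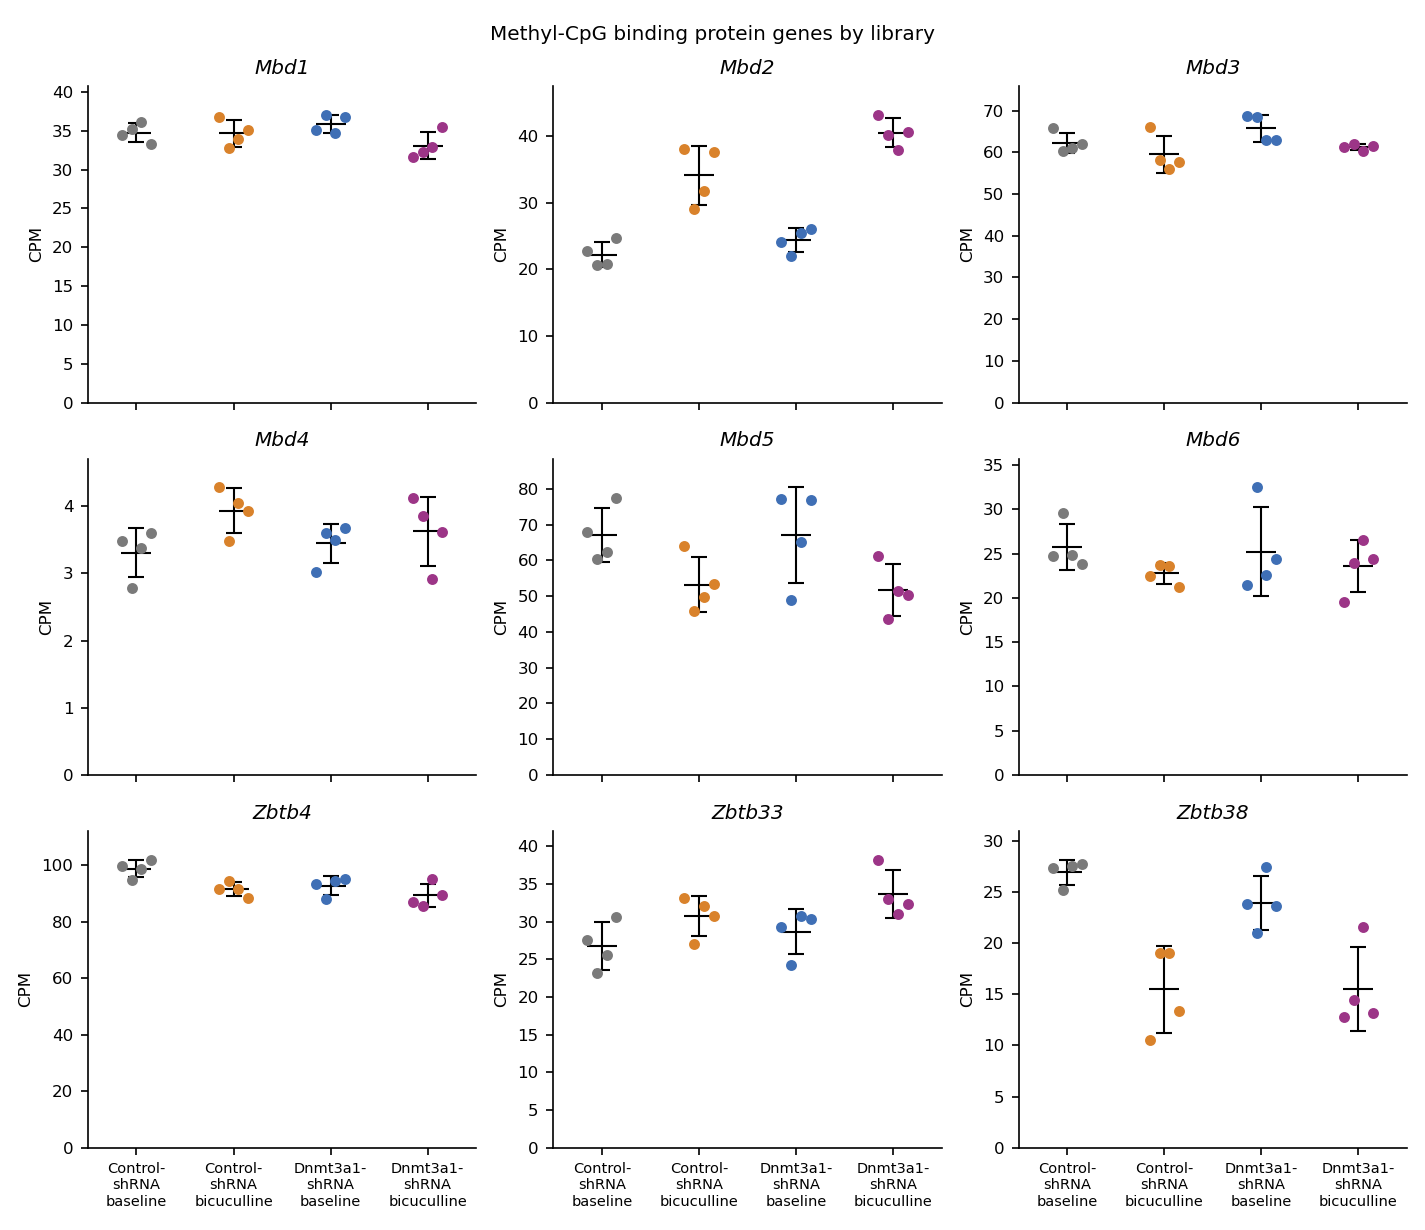
CPM of the 9 genes by library, 1 panel per gene with its own axis from 0. Points are the 4 libraries of a group, the wide bar is their mean and the whiskers are 1 SD, with Mbd2 higher in every bicuculline library than in any baseline library and Zbtb38 lower in each bicuculline group by its mean.

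The other NuRD subunit on the list, Mbd3, had a log2 fold change of -0.07 (SE 0.06) with bicuculline in Control-shRNA and of -0.10 (SE 0.06) in Dnmt3a1-shRNA, with adjusted p of 0.396 and 0.159. Its level thus ranged from 56.0 to 68.7 CPM over the 16 libraries. Mbd6, which like Mbd5 joins PR-DUB, stood at -0.18 (SE 0.12, adjusted p = 0.247) and -0.10 (SE 0.12, adjusted p = 0.548). Mbd1 stood at 0.00 (SE 0.06, adjusted p = 0.963) in Control-shRNA and at -0.12 (SE 0.06, adjusted p = 0.104) in Dnmt3a1-shRNA, where it passed without bicuculline replicate 4, with an adjusted p of 0.0423. Zbtb4, which binds single methylated CpG and is, with 88.3 to 102 CPM at baseline and with bicuculline in Control-shRNA, the gene of the 9 with the most counts, stood at -0.11 (SE 0.05, adjusted p = 0.0834) and -0.05 (SE 0.05, adjusted p = 0.404). Kaiso (Zbtb33) was numerically higher, by 0.20 (SE 0.10, adjusted p = 0.112) in Control-shRNA and by 0.23 (SE 0.10, adjusted p = 0.0624) in Dnmt3a1-shRNA. With the replicate block its adjusted p in Control-shRNA was 0.0287, so that 4 of the 9 genes passed there in place of 2, while the share of all genes that passed rose from 41.4% to 50.8%. It also passed without baseline replicate 4 of Control-shRNA, at 0.0427, and, in the other shRNA, without bicuculline replicate 3 of Dnmt3a1-shRNA, at 0.0463, with DESeq2, at 0.0353, and with DESeq2 size factors in edgeR, at 0.0423. Mbd6 and Zbtb4 did not pass, yet their CPM did not overlap between baseline and bicuculline in Control-shRNA. With Mbd2 and Zbtb38 this made 4 of 9 genes without overlap, against 39.7% of all genes. In Dnmt3a1-shRNA Mbd2, Mbd3 and Zbtb33 were without overlap, 3 of 9 against 40.4%.

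How the libraries are put on a common scale bears on these small differences. With TMM the median of all genes was near 0, and with library totals alone it was -0.15 in Control-shRNA and -0.16 in Dnmt3a1-shRNA, while the share of higher genes among those called fell from 47.0% to 26.5% and from 45.2% to 28.3%. On that scale 5 of the 9 genes passed in Control-shRNA, against 45.2% of all genes, and 6 in Dnmt3a1-shRNA, against 49.1%, with Mbd3, Mbd5 and Zbtb4 lower in both. On log2(TPM + 1) it was 6 of 9 against 41.6% and 5 of 9 against 44.5%. On these scales the share of the 9 genes called was therefore above that of all genes, where with TMM it was below. With only 9 genes these differences rest on few genes, and they were not tested. Mbd2 stayed higher and Zbtb38 lower on every scale used.

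The second question was whether the knockdown of Dnmt3a1 alters these genes. None of the 9 passed between the shRNAs at baseline, where 8.12% of all genes were higher and 8.19% lower in Dnmt3a1-shRNA. No gene of the 9 had an unadjusted p under 0.05 there, and none passed with DESeq2 or with voom and limma. With library totals alone the share of higher genes among all genes called was 26.9% in place of 49.8% at baseline and 25.2% in place of 43.5% with bicuculline, and still none of the 9 passed. At baseline the log2 fold changes ran from -0.17 (SE 0.17) for Zbtb38 to 0.13 (SE 0.09) for Mbd2. With bicuculline none passed by edgeR either, against 7.69% higher and 9.99% lower, and 1 had an unadjusted p under 0.05. That gene was Mbd2, at 0.25 (SE 0.09, adjusted p = 0.0635), whose bicuculline libraries were at 29.04 to 38.0 CPM in Control-shRNA and at 37.9 to 43.2 CPM in Dnmt3a1-shRNA. These ranges overlapped by the lowest knockdown library only. Mbd2 passed under 4 of the 25 alternatives, among them DESeq2, at an adjusted p of 0.0355. It also passed without Control-shRNA bicuculline replicate 1, at 0.0312, or replicate 4, at 0.0419. With the replicate number as a block in edgeR, which was not taken to pair the libraries in this comparison, it passed at 0.00719. The range of its adjusted p over all 25 was 0.00719 to 0.263. The other 8 genes had log2 fold changes of -0.12 to 0.13 with bicuculline. The CPM of every one of the 9 genes overlapped between the shRNAs in both conditions, where 19.9% of all genes at baseline and 20.9% with bicuculline did not.

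The difference between the bicuculline responses of the shRNAs was tested as an interaction. None of the 9 genes passed, at an adjusted p of 1 for each, and none had an unadjusted p under 0.05. Of all 17222 genes tested 0% passed with edgeR, and DESeq2 called 18, or 0.105%. With edgeR 852 had an unadjusted p under 0.05, near the number that this cut-off gives by chance over so many genes. The estimates for the 9 ran from -0.18 (SE 0.18) for Mbd4 to 0.17 (SE 0.25) for Zbtb38.

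**Figure D3:**
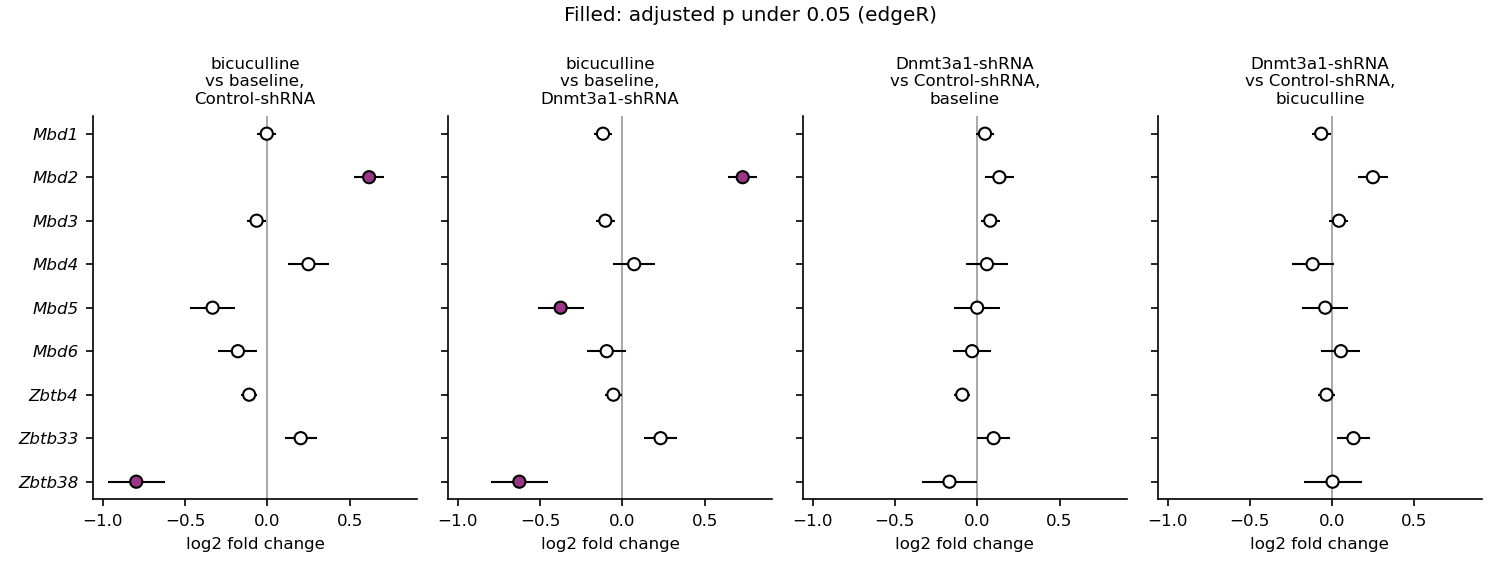
Log2 fold changes of the 9 genes in the 4 comparisons, with bars of 1 SE. Filled points passed at an adjusted p under 0.05: Mbd2 and Zbtb38 in both bicuculline comparisons, Mbd5 in Dnmt3a1-shRNA, and none between the shRNAs.

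For Mbd4 the TMM-scaled counts and the deposited TPM pointed in different directions. Its estimated counts were few, 82 to 118 per library. In Control-shRNA they gave 3.49, 2.78, 3.38 and 3.60 CPM at baseline and 4.28, 3.48, 4.05 and 3.93 CPM with bicuculline, a log2 fold change of 0.25 (SE 0.13, adjusted p = 0.13) with overlapping groups. The TPM values of the same libraries were 3.23, 2.96, 3.24 and 3.27 at baseline and 2.60, 2.44, 2.44 and 2.27 with bicuculline, where every bicuculline library was below every baseline library. On log2(TPM + 1) with limma the fold change was -0.28 (adjusted p = 0.0305) in Control-shRNA and -0.42 (adjusted p = 0.00227) in Dnmt3a1-shRNA. The TMM-scaled counts gave 0.07 (SE 0.13, adjusted p = 0.685 by edgeR) in Dnmt3a1-shRNA. With library sizes only the counts gave 0.09 in Control-shRNA and were lower in Dnmt3a1-shRNA, the direction of TPM. TPM lies on a scale on which the median of all genes was itself lower by 0.14 and 0.13.

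A count divided by its TPM follows the mean effective length of the transcripts to which a gene's reads were assigned. This ratio, with each library scaled on 2141 genes that have 1 annotated transcript and set to a mean of 1 in Control-shRNA baseline, was therefore compared for the 9 genes. The ratio of Mbd4 was 1 ± 0.0721 at baseline and 1.35 ± 0.135 with bicuculline in Control-shRNA, and 0.909 ± 0.119 and 1.23 ± 0.127 in Dnmt3a1-shRNA (SD, n = 4). The groups did not overlap in either shRNA, at 0.913 to 1.07 against 1.20 to 1.47 and at 0.789 to 1.07 against 1.13 to 1.41. By this ratio the transcripts to which Mbd4 reads were assigned were 1.35 times as long on average with bicuculline in each shRNA. Mbd4 has 5 annotated transcripts of 669 to 3614 nt, on the minus strand of chromosome 6 from 115840697 to 115853371, with the antisense gene Gm44206 overlapping it.

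The same ratio moved less for the other genes. Mbd1 went from 1 ± 0.0141 to 0.973 ± 0.0103 in Control-shRNA and from 1 ± 0.0115 to 0.963 ± 0.0195 in Dnmt3a1-shRNA, without overlap in either. Mbd5 did not overlap in Dnmt3a1-shRNA, at 1.07 ± 0.115 and 0.894 ± 0.0653, and overlapped in Control-shRNA. In all, 2 of 9 genes were without overlap in Control-shRNA, against 7.15% of the 16961 genes with a ratio in every library, and 3 of 9 in Dnmt3a1-shRNA, against 8.14%. For Zbtb38 the ratio with bicuculline was 1.05 and 0.9999 times that at baseline, and its counts and TPM were both lower. The ratio was chosen after Mbd4 had been seen to differ between the tables, and no test was made of it.

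**Figure D4:**
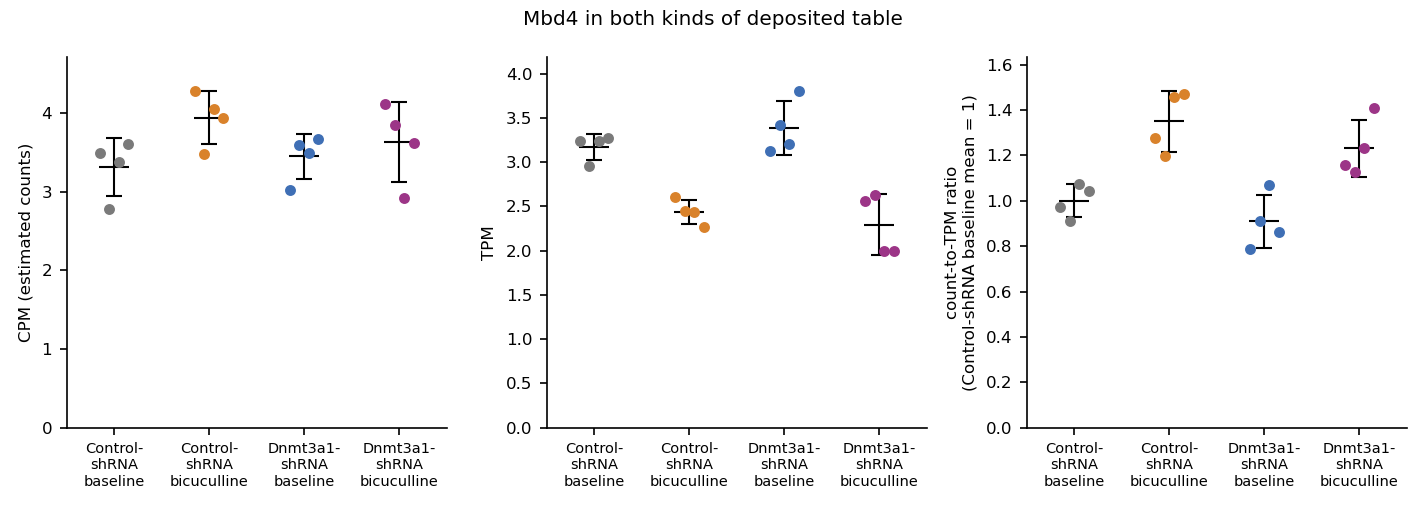
Mbd4 in the 16 libraries as CPM from the estimated counts, as TPM and as the ratio of count to TPM (Control-shRNA baseline mean set to 1), with means and whiskers of 1 SD. TPM is lower and the ratio higher in every bicuculline library than in any baseline library of the same shRNA, and CPM overlaps.

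The genes whose pattern over the 16 libraries was most like that of Zbtb38, the gene with the largest change in Control-shRNA, were Cand2, Cers4 and Car12. Likeness was the root mean square difference of log2 CPM after each gene's mean was removed, over 13879 genes of at least 1 CPM on average. It was 0.13 for Cand2, 0.14 for Cers4 and 0.14 for Car12, against a median of 0.49 over all these genes. Cers4, a ceramide synthase, stood at 38.2 ± 3.20 CPM at baseline and at 23.5 ± 4.49 CPM with bicuculline in Control-shRNA, and at 34.2 ± 2.09 and 22.7 ± 5.16 CPM in Dnmt3a1-shRNA. Cand2 had log2 fold changes of -0.93 and -0.76 with bicuculline in Control-shRNA and Dnmt3a1-shRNA, and Car12, a carbonic anhydrase, of -0.68 and -0.71. The groups and the libraries are shared by all these genes, so the likeness is a description only.

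The proteins with which these readers work were examined through lists of 51 partner and related genes, all tested. With bicuculline 8 of the 51 were higher and 19 lower in Control-shRNA, and 8 were higher and 21 lower in Dnmt3a1-shRNA. Of all genes 19.5% were higher and 21.9% lower in Control-shRNA, and 20.8% and 25.2% in Dnmt3a1-shRNA. The median log2 fold change of the 51 was -0.12 and -0.15. Between the shRNAs 8 of the 51 passed at baseline, against 16.3% of all genes, and 10 with bicuculline, against 17.7%, with 4 and 6 of them higher. Both counts include Dnmt3a, the gene that the knockdown hairpin targets. At baseline the lower genes were Dnmt3a, Chd4, Gatad2b and Setdb2, and the higher genes were Rbbp4, Asxl1, Asxl3 and Tbl1x. None of the 51 passed for the interaction with edgeR.

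Of the 13 other NuRD genes 2 rose and 4 fell with bicuculline in each shRNA, a share of 6 in 13 that lies near the 41.4% and 46.0% of all genes that passed in Control-shRNA and Dnmt3a1-shRNA. The strongest was Cdk2ap1, a small NuRD subunit, which went from 28.1 ± 1.58 to 80.2 ± 4.71 CPM in Control-shRNA (log2 fold change 1.51, SE 0.08, adjusted p = 5.93e-11) and from 29.6 ± 3.15 to 90.3 ± 5.26 CPM in Dnmt3a1-shRNA. The histone chaperone Rbbp7 rose by 0.65 and 0.64 on the log2 scale. The deacetylase Hdac2 stood at -0.41 in Control-shRNA and -0.63 in Dnmt3a1-shRNA, and Hdac1 at -0.37 and -0.36, all of which passed. Gatad2b, which links Mbd2 or Mbd3 to the remodeller Chd4, fell by 0.54 on the log2 scale in Control-shRNA, from 91.4 ± 8.67 to 62.9 ± 1.56 CPM. It was also lower in Dnmt3a1-shRNA at baseline, at 64.6 ± 6.32 CPM (log2 fold change -0.50, SE 0.08, adjusted p = 0.000233). With bicuculline the difference of Gatad2b between the shRNAs did not pass, at -0.18 (SE 0.08, adjusted p = 0.124 by edgeR). Its fall with bicuculline in Dnmt3a1-shRNA was smaller, at -0.22 (SE 0.08, adjusted p = 0.0292).

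Of the 5 genes listed as partners of Mbd1 all fell with bicuculline in both shRNAs, against 21.9% of all genes lower in Control-shRNA and 25.2% in Dnmt3a1-shRNA. They had a median log2 fold change of -0.52 in Control-shRNA and -0.59 in Dnmt3a1-shRNA, while Mbd1 itself did not pass. Setdb1, an H3K9 methyltransferase, went from 54.1 ± 3.20 to 37.8 ± 2.79 CPM in Control-shRNA (log2 fold change -0.52, SE 0.06, adjusted p = 4.66e-06), and its cofactor Atf7ip from 85.7 ± 3.77 to 56.2 ± 4.65 CPM. Chaf1a, the large subunit of the chromatin assembly factor, was at 4.33 ± 0.659 and 2.30 ± 0.0943 CPM. The heterochromatin protein Cbx5 and the methyltransferase Suv39h1 stood at -0.27 and -0.26 on the log2 scale.

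Among the 9 PR-DUB genes, which work with Mbd5 and Mbd6, 1 rose and 3 fell in Control-shRNA, 4 of 9 against 41.4% of all genes, and 3 fell in Dnmt3a1-shRNA, 3 of 9 against 46.0%. Foxk1, a forkhead factor, fell most, from 60.4 ± 3.77 to 25.8 ± 5.86 CPM in Control-shRNA (log2 fold change -1.23, SE 0.13, adjusted p = 1.08e-06) and from 56.1 ± 1.45 to 22.1 ± 4.02 CPM in Dnmt3a1-shRNA. Between the shRNAs 2 of the 9 PR-DUB genes were higher in Dnmt3a1-shRNA at baseline, against 8.12% of all genes. With bicuculline 3 of the 9 were higher, against 7.69%, and none was lower in either condition. Of the 7 genes of NCoR and the Kaiso partner, the NCoR subunit Tbl1xr1 fell by 0.98 on the log2 scale in Control-shRNA, from 44.1 ± 4.97 to 22.5 ± 1.43 CPM. Ctnnd1, the p120 catenin that binds Kaiso, rose by 0.98, from 57.5 ± 1.20 to 113 ± 13.96 CPM, and by 0.96 in Dnmt3a1-shRNA. In this list 1 gene was higher in each shRNA, and 1 was lower in Control-shRNA and 2 in Dnmt3a1-shRNA, so that 2 and 3 of the 7 passed against the same 41.4% and 46.0%.

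Of 6 genes that share base excision or a direct contact with Mbd4, 1 rose and 3 fell in Control-shRNA and 4 fell in Dnmt3a1-shRNA, against 19.5% of all genes higher and 21.9% lower in the first and 25.2% lower in the second. Apex1, the endonuclease that cuts the abasic site left by a glycosylase, went from 31.6 ± 1.87 to 18.04 ± 0.793 CPM in Control-shRNA (log2 fold change -0.81, SE 0.08, adjusted p = 6.15e-07). The glycosylases Smug1 and Ung stood at -0.60 and -0.73 on the log2 scale in Control-shRNA. Ung had few counts, at 1.35 ± 0.329 and 0.812 ± 0.256 CPM (SE 0.28, adjusted p = 0.0428 by edgeR). Tdg, another glycosylase, did not pass there, at -0.13 (SE 0.06, adjusted p = 0.0775). In Dnmt3a1-shRNA it passed at -0.21 (SE 0.06, adjusted p = 0.00612). Of 5 other genes with a methyl-CpG reading or MBD-like domain, Baz2a, a subunit of the nucleolar remodelling complex, fell by 0.52 on the log2 scale in Control-shRNA, and Uhrf2 passed at 0.27. In this list 1 gene was higher and 1 lower in Control-shRNA, and 3 were higher and 1 lower in Dnmt3a1-shRNA, where 20.8% of all genes were higher and 25.2% lower.

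The enzymes that write and oxidise the mark were a further list. Of 6 genes for DNA methyltransferases and Tet enzymes 2 rose and 2 fell with bicuculline in each shRNA, 4 of 6 against 41.4% of all genes in Control-shRNA and 46.0% in Dnmt3a1-shRNA. Tet3, which oxidises methylcytosine, went from 93.4 ± 4.61 to 350 ± 80.4 CPM in Control-shRNA (log2 fold change 1.91, SE 0.13, adjusted p = 2.62e-09), and Tet2 from 28.3 ± 2.86 to 59.0 ± 9.82 CPM. Tet1 fell by 0.98 on the log2 scale, from 34.01 ± 4.61 to 17.2 ± 1.16 CPM. The other gene lower in Control-shRNA was Dnmt3b, at -1.54 (SE 0.34, adjusted p = 0.00151 by edgeR). It had few counts, at 0.396 ± 0.0812 and 0.133 ± 0.0607 CPM. In Dnmt3a1-shRNA Dnmt3b did not pass (adjusted p = 0.0971 by edgeR), and the other lower gene was Dnmt1, at -0.18 (SE 0.06, adjusted p = 0.0163).

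**Figure D5:**
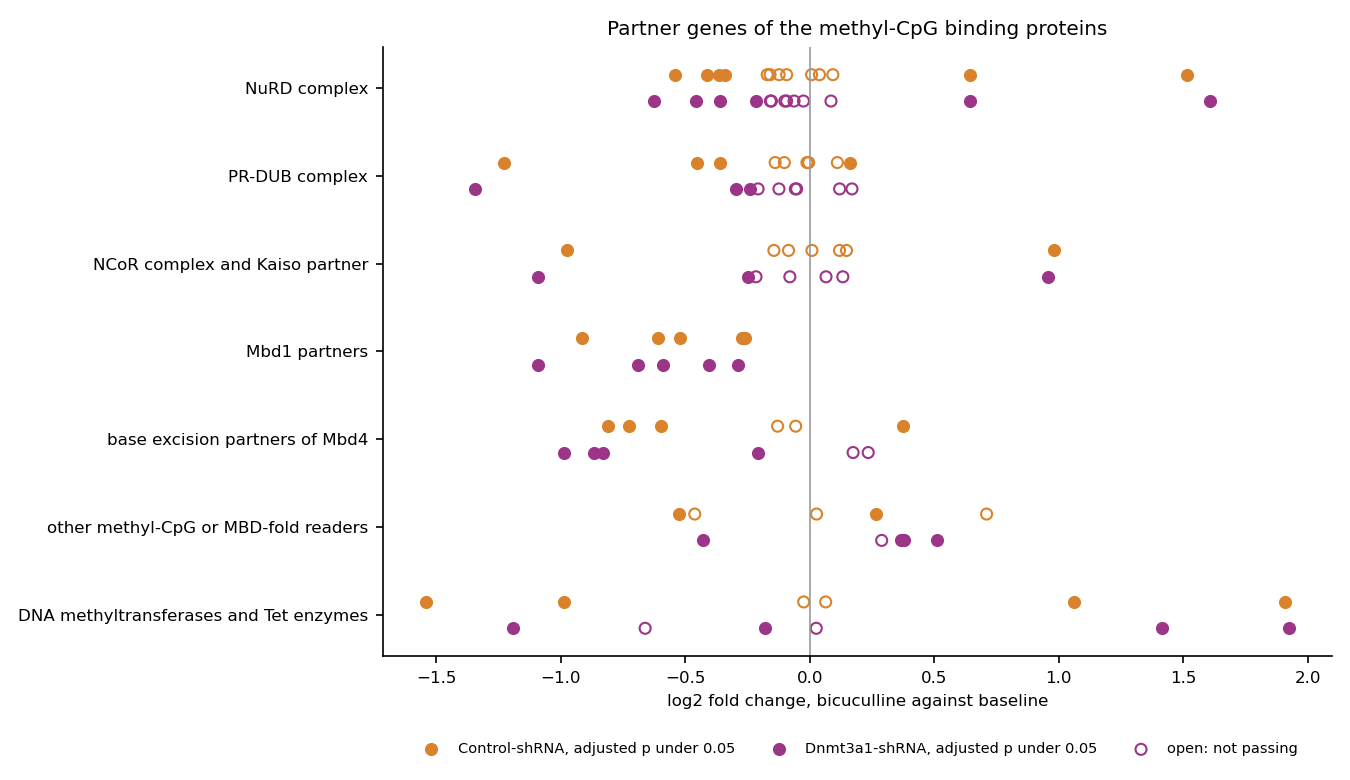
Log2 fold changes with bicuculline of the 51 partner and related genes, 1 row of points per list and shRNA. Filled points passed at an adjusted p under 0.05. All 5 partners of Mbd1 lie below 0 in both shRNAs, and Cdk2ap1 at 1.51 and Tet3 at 1.91 in Control-shRNA lie furthest to the right in their lists.

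The remaining positions on GRCm38, from GENCODE release M21, were these. Mbd1 (ENSMUSG00000024561.11) was annotated at 74267605 to 74282732 of chromosome 18 and Mbd2 (ENSMUSG00000024513.16) at 70568189 to 70626131 of the same chromosome, both on the plus strand. Mbd3 (ENSMUSG00000035478.14) lies on the minus strand of chromosome 10 from 80392539 to 80399550, and Mbd6 (ENSMUSG00000025409.14) on the minus strand of the same chromosome from 127281956 to 127289018. Mbd5 (ENSMUSG00000036792.12) spans chromosome 2 from 48949508 to 49325405 with 15 annotated transcripts, and Zbtb38 (ENSMUSG00000040433.16) spans chromosome 9 from 96682770 to 96752831 with 12. Zbtb4 (ENSMUSG00000018750.14) lies on chromosome 11 from 69765912 to 69784023 and Zbtb33 (ENSMUSG00000048047.3) on chromosome X from 38189793 to 38197046, both on the plus strand. Mbd4 is ENSMUSG00000030322.12. All values refer to whole genes, exons of all annotated transcripts included.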

How the data were processed

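RNA of 16 libraries of primary hippocampal cultures was examined, 4 for each of 4 groups given by the sample labels. The members and the lists were chosen with earlier results of these data known. The authors trimmed reads with Trim Galore 0.6.4 and quantified them with kallisto on GRCm38.p6. The labels give kallisto version 0.4.6, and the study's methods give a different version number. For each library the authors deposited 1 estimated count per gene, without scaling. A TPM value per gene, adjusted for transcript length and library total, was deposited as well. Whether counting used the strand is not given in the sources used here. Of 55385 identifiers 55144 matched GENCODE release M21 without their version.

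Estimated counts were rounded and tested with edgeR 4.0.16 (R 4.3.3) by the quasi-likelihood test, with TMM, filterByExpr by group, 1 model for the 4 groups, and Benjamini-Hochberg adjustment over the 17222 genes tested. A gene passed at an adjusted p under 0.05, and was also counted with an absolute log2 fold change over 0.5. CPM values are TMM-scaled, and values are given as mean ± SD. All 9 members were named whatever their values; partner genes were named from those with the larger changes among the genes that passed, plus a few that passed below 0.5, chosen after their values were seen. The fit was also tested on simulated counts.

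Replicate numbers 1 to 4 recur in every group of the labels. Deviations from the group means of same-numbered libraries correlated across genes with Pearson's r of 0.142 to 0.221 for the bicuculline comparison in Control-shRNA, and of 0.204 to 0.355 for the baseline comparison of the shRNAs, so the numbers were taken to pair the libraries there. In each of these comparisons 3 of the 4 libraries correlated best with their own number, and replicate 4 correlated better with another. In the other comparisons r ran from 0.0631 to 0.337 and from 0.0667 to 0.388. For the low end of these ranges the numbers were not taken to pair the libraries there. No pair of libraries of a group agreed within sampling noise (chi-square divided by its degrees of freedom 7.64 to 42.6). Alternatives were voom with limma 3.58.1, DESeq2 1.42.0, library sizes only, DESeq2 size factors in edgeR, no filter, limma on log2(TPM + 1) and log2(TPM + 0.1), a replicate block, the groups compared only, and each library left out. Other methyl-CpG binding genes outside the list are not reported here.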

Additional observations from a re-analysis of the deposited data

Results flagged for a closer look

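The CPM of Mbd6 in Control-shRNA baseline replicate 2 was 29.6, apart from the other 3 libraries of its group, which were at 23.9 to 24.8 CPM. The gap to the nearest of them was 0.833 of the range of the group, above Dixon's 95% critical value for 4 samples. It was 1 of 72 sets of 4 libraries examined, and chance alone flags about 1 in 20. Without this library the log2 fold change of Mbd6 with bicuculline in Control-shRNA was -0.11 in place of -0.18.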

How the results depend on the processing

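Mbd2 and Zbtb38 kept their direction with bicuculline and passed under all 25 alternatives, 9 settings and 16 libraries left out in turn, in each shRNA. The number of the 9 genes that passed in Control-shRNA was 2 (41.4% of all genes), and it was 5 with library sizes only (45.2%), 6 with limma on log2(TPM + 1) (41.6%), 6 with limma on log2(TPM + 0.1) (41.2%) and 4 with the replicate block (50.8%). In Dnmt3a1-shRNA it was 3 (46.0%), and it was 6 (49.1%), 5 (44.5%) and 5 (44.7%) on the same 3 scales, 4 with DESeq2 (46.1%), 4 with the replicate block (54.6%), 2 with the groups compared only (44.4%) and 2 with the fold rule (25.8%). Between the shRNAs with bicuculline it was 0, and it was 1 with DESeq2 (3439 of all 17222 genes), 1 with the replicate block (5158) and 0 to 1 when a library was left out, the gene being Mbd2 each time. The block was taken as a pairing for the bicuculline comparison in Control-shRNA and for the baseline comparison of the shRNAs, and in the latter it changed no call. In the other comparisons same-numbered libraries correlated with r of 0.0631 to 0.337 (bicuculline in Dnmt3a1-shRNA) and 0.0667 to 0.388 (between the shRNAs with bicuculline). The mitochondrial share was highest in replicate 1 and lowest in replicate 3 in all 4 groups, so preparations shared by number are possible. These values do not settle whether the numbers pair the libraries in those comparisons. There the block added Zbtb33 with bicuculline in Dnmt3a1-shRNA (adjusted p = 0.0117) and Mbd2 between the shRNAs (adjusted p = 0.00719), and 2 of the 4 libraries correlated best with their own number in each.

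Of 439 values of single genes under an alternative, 17 changed sign, and 4 of those passed the test, all of them Mbd4 on TPM. The log2 fold change of Mbd4 was -0.28 and -0.37 on log2(TPM + 1) and log2(TPM + 0.1) in Control-shRNA, and -0.42 and -0.55 in Dnmt3a1-shRNA, where library sizes only gave -0.0838. Zbtb33 in Control-shRNA was -0.0375 and -0.0399 on the same TPM scales, and Mbd2 between the shRNAs at baseline -0.0047 and -0.005. Mbd1 in Control-shRNA was 0.0117 with DESeq2, 0.0123 with its size factors in edgeR and -0.0376 to 0.0215 with a library left out. With a library left out Mbd6 in Dnmt3a1-shRNA ran from -0.17 to 0.0497, and the interaction of Zbtb38 from -0.0305 to 0.29. The cause of these changes was not tested. Scaling the ratio of count to TPM of Mbd4 on all genes above 1 TPM, an alternative chosen after seeing the data, gave 1.35 and 1.36 times the baseline value in place of 1.35 and 1.35. Mbd4 had the fewest counts of the 9 genes, 82 to 118 per library.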
